A study of Mus musculus with 16 samples.

Results

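The DNA replication machinery was followed here through 33 genes, chosen by name from the parts that license, open, copy and seal DNA and from the enzymes that supply its building blocks. All 33 were found among the 27807 genes of the series, and all 33 passed the filter on low values (a mean of at least 10 normalised counts). RNA was measured by poly-A sequencing in 16 libraries, 2 for each of 8 groups. The mouse ES cells were C57Bl6J and carried the label WT (Taf4+/+) or Taf4a-/- (Taf4-/-, an allele that lacks exons of Taf4a). Taf4a encodes Taf4, which belongs to TFIID, the complex that recognises core promoters for RNA polymerase II. Each genotype was collected at 4 stages, namely ES cells kept on inactivated fibroblast feeders with LIF (ES), embryoid bodies before retinoic acid (EB4), embryoid bodies after the first day of retinoic acid (EB5) and embryoid bodies later in that treatment, which the labels call neural precursor cells (EB8). The lines came from blastocysts of heterozygous crosses, 2 independent lines for a genotype per the series design, and the labels do not say which library came from which line. The p-values below therefore measure the spread between these libraries alone. EB4, EB5 and EB8 shared the embryoid body culture in both genotypes, and only EB5 and EB8 had received retinoic acid.

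DNA replication is prepared in G1, when Cdc6 and Cdt1 load the MCM helicase onto origins, and geminin (Gmnn) then keeps Cdt1 from loading it again. In S phase, Cdc45 and the GINS complex join the helicase, and Mcm10 helps to activate it. Polymerases held on DNA by the sliding clamp Pcna copy the strands, and RPA covers the exposed single strands. Many of these genes are known targets of E2F factors, which link their transcription to the cell cycle, and ES cells are known for a short G1 and a large share of cells in S phase.

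Promoters of 26 of the 33 genes were found in RefSeq (GRCm38.p6), as 300 bases from 250 before to 50 after the start site, and 7 had no entry (Rfc2, Gins1, Gins2, Gins4, Pole, Gmnn and Mcm4). The E2F motif was searched on both strands in its form TTCCCGC and in the related forms TTGGCGC (with GG in the middle), TTCGCGC (with CG) and TTGCCGC (with GC). It was present in 18 of the 26 promoters (69.23%) and in 10.86% of the promoters of 27025 genes. The CCAAT box was present in 17 of the 26 (65.38%, against 41.06% of all), and the CHR motif (TTTGAA and its variant TTCGAA), a mark of many mitotic genes, in 6 (23.08%, against 21.66% of all). A match describes these letters and is not a binding site shown by these data. Rrm1 and Rpa1 are printed because they were the only members called between genotypes at EB8 by limma, and Mcm3, Mcm5 and Mcm6 as examples of MCM subunits with 3 or more matches. The 3 MCM promoters were picked after these values were seen, and Mcm7 (3 matches) and Pola1 (4) are not printed. Sequences run 5′ to 3′ on the strand of the gene, and capitals mark the E2F matches.
Rrm1, chr7:102441445-102441744, plus strand: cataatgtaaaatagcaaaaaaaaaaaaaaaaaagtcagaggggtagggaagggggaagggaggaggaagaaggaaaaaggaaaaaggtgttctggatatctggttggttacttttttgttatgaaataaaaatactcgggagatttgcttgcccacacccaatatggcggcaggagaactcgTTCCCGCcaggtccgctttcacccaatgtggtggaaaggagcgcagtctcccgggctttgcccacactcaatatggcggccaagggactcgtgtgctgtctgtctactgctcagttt
Rpa1, chr11:75348334-75348633, minus strand: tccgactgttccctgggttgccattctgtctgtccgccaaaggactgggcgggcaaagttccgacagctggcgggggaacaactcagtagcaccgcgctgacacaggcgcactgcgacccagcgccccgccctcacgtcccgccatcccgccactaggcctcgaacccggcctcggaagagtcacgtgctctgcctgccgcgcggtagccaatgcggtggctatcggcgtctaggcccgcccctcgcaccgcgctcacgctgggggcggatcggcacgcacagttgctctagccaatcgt
Mcm3, chr1:20820263-20820562, minus strand: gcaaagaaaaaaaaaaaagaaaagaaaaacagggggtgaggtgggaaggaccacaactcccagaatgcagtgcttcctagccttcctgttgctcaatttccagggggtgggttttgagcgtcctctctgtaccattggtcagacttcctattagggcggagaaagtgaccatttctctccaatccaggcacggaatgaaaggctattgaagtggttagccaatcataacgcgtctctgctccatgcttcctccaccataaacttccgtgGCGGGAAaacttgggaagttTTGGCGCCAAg
Mcm5, chr8:75109259-75109558, plus strand: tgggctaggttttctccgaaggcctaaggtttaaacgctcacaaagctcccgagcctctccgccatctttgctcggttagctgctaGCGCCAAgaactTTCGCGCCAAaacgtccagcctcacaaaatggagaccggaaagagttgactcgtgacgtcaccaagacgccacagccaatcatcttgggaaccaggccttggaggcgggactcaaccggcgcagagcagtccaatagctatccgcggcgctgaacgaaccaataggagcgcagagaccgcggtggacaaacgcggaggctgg
Mcm6, chr1:128359656-128359955, minus strand: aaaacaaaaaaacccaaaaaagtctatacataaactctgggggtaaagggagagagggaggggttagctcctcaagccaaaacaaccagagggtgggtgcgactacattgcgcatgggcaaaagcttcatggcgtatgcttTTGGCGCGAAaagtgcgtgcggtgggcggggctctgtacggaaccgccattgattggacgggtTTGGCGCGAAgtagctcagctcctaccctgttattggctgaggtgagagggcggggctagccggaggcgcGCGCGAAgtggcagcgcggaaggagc

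Rrm1 held 1 match, which began 67 bases before the start site, and Rpa1 held none. In Mcm3 the 3 matches began 19, 39 and 42 bases after the start site, and in Mcm5 they began at -164, -152 and -149 relative to it. Mcm6 held 5 matches. In Mcm3, Mcm5 and Mcm6, neighbouring matches on opposite strands overlapped, and each overlapping pair is printed as 1 capital run.

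The recovered depth ran from 22442118 to 40711826 reads in genes. Every ES library was deeper (at least 32631020 reads) than every embryoid body library (at most 27685306), so depth and the ES stage cannot be told apart in comparisons with ES, and EB8 was also set against EB4. Taf4a itself was not lower in the libraries labelled Taf4a-/-, with 1973 to 2400 normalised counts against 1591 to 1960 in WT. The value counts reads over the whole gene and does not resolve the deleted exons, so it checks nothing about the labels. The level of each chromosome, as the median over its genes relative to the rest of the genome, also differed between libraries of a group. Chromosome 8 stood 0.41 to 0.43 (log2) above the rest in replicate 1 of the WT embryoid bodies (EB4, EB5 and EB8), against at most 0.03 in the other libraries. Chromosome 11 stood at 0.20 to 0.29 in Taf4a-/- replicate 1 at all 4 stages and at most 0.03 elsewhere. The X chromosome stood at 0.37 to 0.56 in Taf4a-/- replicate 2 at all stages and in WT ES replicate 2, and below 0 elsewhere. The WT ES libraries therefore differed from the WT embryoid body libraries in the levels of chromosomes 8 and X, besides stage and depth. Whether they came from the same lines is not given. The part of these levels in the WT comparisons with ES was not tested. Of the 33 genes, 5 lie on chromosome 8 (Mcm5, Cdt1, Gins2, Gins3 and Gins4), 3 on chromosome 11 (Cdc6, Rpa1 and Tk1) and 1 on X (Pola1). The other 24 lie elsewhere. Chromosome 6, which holds Mcm2 and Rpa3, stood at -0.26 in Taf4a-/- ES replicate 1 and between -0.09 and 0.12 in the other libraries.

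Replication genes were abundant. Their lowest single value was 140 reads, for Fen1, and their highest 26673 reads, for Mcm5. Per kb of exon, Rrm2, the regulatory subunit of ribonucleotide reductase, had the highest mean level in WT ES (4819 ± 883 normalised counts per kb, SD, n = 2), WT EB8 (2993 ± 869), Taf4a-/- ES (6347 ± 413) and Taf4a-/- EB8 (2621 ± 195). Mcm3 was highest in the remaining 4 groups. In WT ES, Rrm2, Mcm3 (4698 ± 731), Mcm2 (4601 ± 925) and Mcm5 (4244 ± 1111) lay within their SDs of each other, so their order was not resolved. The 6 MCM subunits form a hexamer in equal numbers. Within a library, the highest of them per kb exceeded the lowest by 1.38 to 2.00 times. Fen1, which cuts the flaps of Okazaki fragments, was lowest per kb in all 8 groups, with 138 in WT ES, 97 in WT EB8 and 78 in Taf4a-/- EB8. Genes on the opposite strand cover 84.19% of the exon bases of Fen1, and Gse1 covers 67.32% of those of Gins2. Whether counting used the strand is not given in the sources used here, so the values of both are uncertain. For Mcm7, Rfc4 and Rfc5 the overlapped share was 12.58%, 12.65% and 10.69%.

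**Figure D1:**
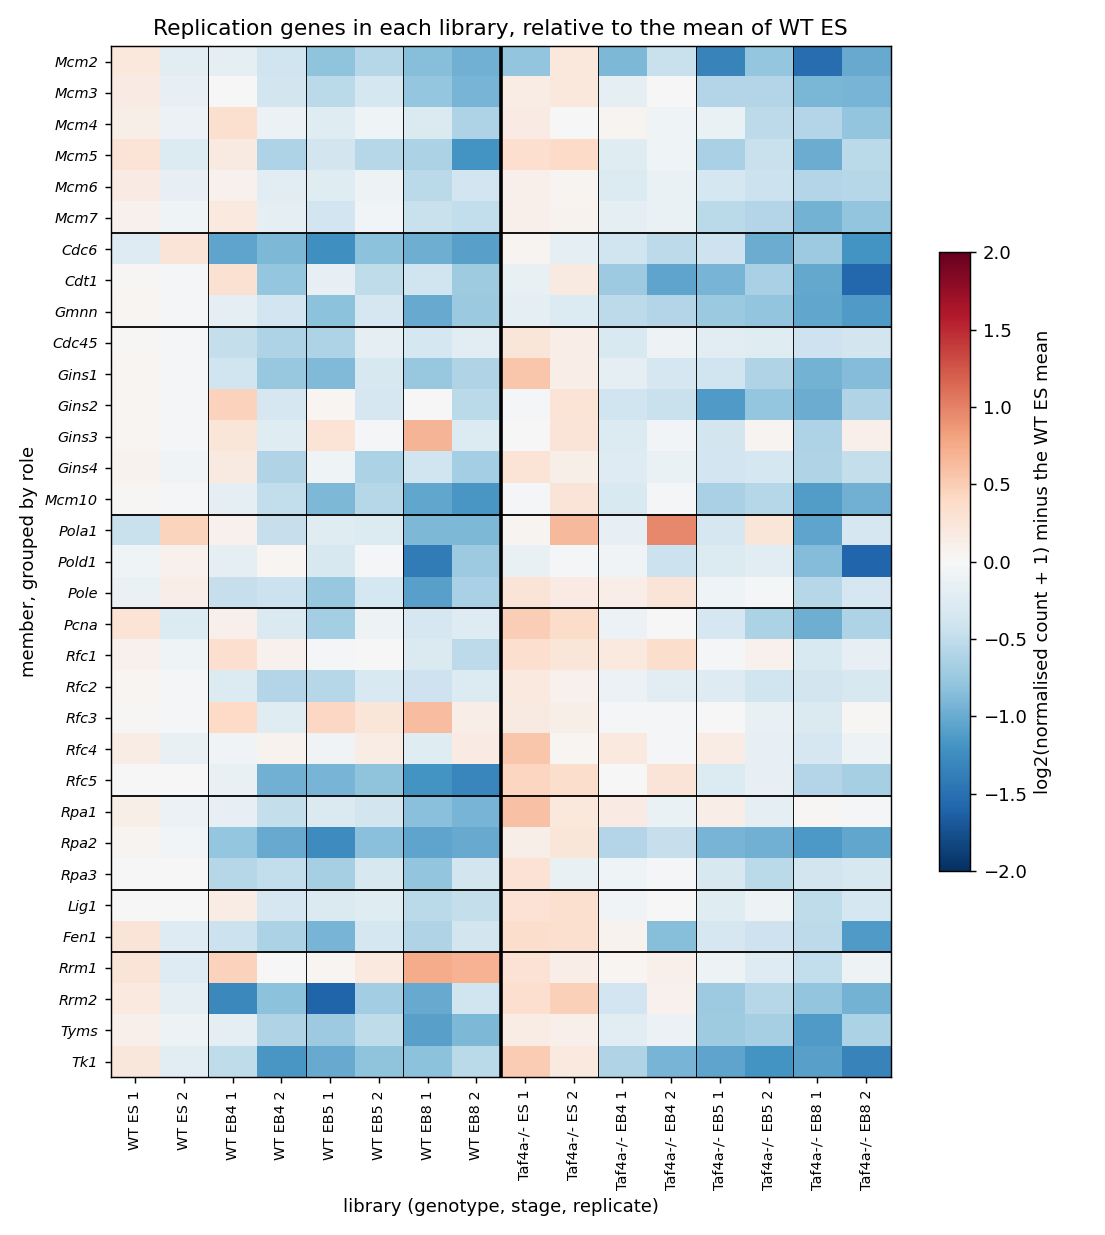
Heat map of the 33 replication genes (rows, ordered by role) in the 16 libraries (columns). Colour gives the log2 ratio of the normalised count to the mean of the 2 WT ES libraries. Most rows turn to lower values towards EB8 in both genotypes, while Rrm1 turns to higher values in WT EB8.

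In WT cells, most replication genes had less RNA at EB8 than at ES. Of the 33 genes, 19 fell and 1 rose at an adjusted p below 0.05 (limma, Benjamini-Hochberg over 16124 genes), and 30 had a negative change. Their median log2 change was -0.58, against 0.01 over all genes tested. The background of this comparison was high, with 46.8% of all genes called in either direction and 22.8% called lower. For 27 of the 33 genes, both WT EB8 libraries lay below both WT ES libraries, which held for 35.3% of all genes. The count of 20 calls was 11 without WT EB8 replicate 1, 13 without WT ES replicate 1 and 12 when only the 2 groups were fitted. Bulk RNA cannot tell fewer cells in S phase from less RNA per cell. All 6 MCM subunits had negative changes and 5 fell (Mcm2, Mcm3, Mcm5, Mcm6 and Mcm7). Of the licensing genes, Cdc6 and Gmnn fell and Cdt1 (-0.56, adjusted p = 0.151) did not pass. Of the genes that complete and activate the helicase, Mcm10 and Gins1 fell and 4 of 6 did not pass. Of these 4, Gins2, Gins3 and Gins4 lie on chromosome 8, which was raised in WT EB8 replicate 1. That library had 1279 normalised counts of Gins2 against 877 in replicate 2, and 1470 against 1208 of Gins4. The part of that chromosome in their WT changes was not tested. Catalytic subunits of polymerase delta (Pold1) and epsilon (Pole) fell, that of polymerase alpha (Pola1, -0.90, adjusted p = 0.0817) did not pass. Pola1, on X, had 2620 and 4896 normalised counts in WT ES and 1931 and 1911 in WT EB8. The higher WT ES value was that of replicate 2, with the raised X, and the part of X in this change was not tested. All 3 RPA subunits fell.

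Mcm10 had 4161 and 4045 normalised counts in WT ES, 3587 and 2906 at EB4, 2189 and 2758 at EB5, and 2002 and 1835 at EB8. Its level at EB8 was 2.14-fold lower than at ES (log2 -1.10, SE 0.171, adjusted p = 0.000293, limma with Benjamini-Hochberg), and the 2 groups did not overlap. Rfc5, a subunit of the clamp loader, had 4789 and 4757 normalised counts in WT ES and 2087 and 1929 at EB8. The change of Rfc5 was the largest fall among the 33 in WT (log2 -1.25, SE 0.21, adjusted p = 0.000494, limma with Benjamini-Hochberg). Mcm3 had 15599 and 12507 normalised counts in WT ES, 14016 and 10810 at EB4, 9585 and 10974 at EB5, and 8187 and 7369 at EB8, a fall over the course (log2 -0.85, SE 0.157, adjusted p = 0.000957, limma with Benjamini-Hochberg). Both EB8 libraries of Mcm3 were below every earlier WT library. Pold1 stayed near its ES level until EB5. It had 5191 and 5787 normalised counts at ES, 4773 and 5609 at EB4, 4390 and 5376 at EB5, and 2084 and 3314 at EB8. Its fall from EB5 to EB8 (log2 -0.89, SE 0.253, adjusted p = 0.0438) was the only call among the 33 genes at that step in WT by limma, where 10.4% of all genes were called. At this step edgeR called 0 members and DESeq2 3. Among all 16124 genes, edgeR called 893 higher and 712 lower there, and DESeq2 1397 higher and 1114 lower.

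Rpa2, a subunit of the single-strand binding complex, fell early. It had 4543 and 4191 normalised counts in WT ES and 2559 and 2160 at EB4, and stayed between 1822 and 2450 afterwards. The first step from ES to EB4 called 5 of the 33 genes in WT, all lower. They were Rrm2 (log2 -1.06, adjusted p = 0.029), Cdc6 (-0.98, adjusted p = 0.0182), Rpa2 (-0.89, adjusted p = 0.00422), Tk1 (-0.83, adjusted p = 0.0387) and Cdc45 (-0.54, adjusted p = 0.0406), by limma with Benjamini-Hochberg. Of all genes, 16.5% were called at this step and 7.57% were called lower. The count of 5 was 2 or 3 when any library was left out and 0 when only the 2 groups were fitted. Rrm2 and Tk1 supply deoxynucleotides, Tk1 by salvage of thymidine. Rrm2 went from 15082 and 11623 normalised counts at ES to 5417 and 7489 at EB4, and at EB8 had 6592 and 9998. Its change over the whole course in WT did not pass (log2 -0.71, adjusted p = 0.0648). Between EB4 and EB5 no member was called in WT by limma, edgeR or DESeq2 (1 had an unadjusted p below 0.05). At that step limma called 3.73% of all 16124 genes, with 2387 at an unadjusted p below 0.05.

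Rrm1, the catalytic partner of Rrm2, went the other way in WT. It had 7533 and 5222 normalised counts at ES, 8626 and 6298 at EB4, 6441 and 7188 at EB5, and 10442 and 10196 at EB8. Both EB8 libraries were the highest of all WT libraries. Rrm1 rose from ES to EB8 by 0.72 on the log2 scale (SE 0.201, adjusted p = 0.0112, limma with Benjamini-Hochberg), the only rise among the 33 genes in WT. Set against EB4, its change was 0.49 and did not pass (adjusted p = 0.0932). Rfc3, another clamp loader subunit, had 1361 and 1323 normalised counts in WT ES and 2054 and 1478 at EB8. Its values did not overlap either, but the change of 0.38 did not pass (adjusted p = 0.174).

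In Taf4a-/- cells, replication genes also had less RNA at EB8 than at ES. From ES to EB8, 26 of the 33 fell, none rose, and all 33 had a negative change, with a median log2 change of -0.92 against 0.02 over all genes tested. Of all genes, 37.7% were called in this comparison and 18% were called lower. For 32 of the 33, both EB8 libraries lay below both ES libraries, as for 35.9% of all genes. With quantile normalisation the count was 17. The 6 MCM subunits and the 3 licensing genes all fell. So did 5 of the 6 helicase partners, 4 of the 6 clamp and loader genes, Lig1 and Fen1, and 3 of the 4 genes of deoxynucleotide supply. Of the RPA subunits, Rpa2 fell, and Rpa1 (-0.39, adjusted p = 0.102) and Rpa3 (-0.41, adjusted p = 0.129) did not pass. The other genes that did not pass were Gins3, Pola1, Rfc3, Rfc4 and Rrm1, with log2 changes from -1.05 (Pola1) to -0.28 (Rfc3).

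Tk1 had 2202 and 1771 normalised counts in Taf4a-/- ES, 1028 and 817 at EB4, 747 and 676 at EB5, and 731 and 615 at EB8. It fell 2.94-fold from ES to EB8, the largest change of the group (log2 -1.56, SE 0.249, adjusted p = 0.000609, limma with Benjamini-Hochberg). Pcna, the sliding clamp that holds polymerases on DNA, had 11830 and 10869 normalised counts in Taf4a-/- ES, 7763 and 8341 at EB4, 6639 and 5431 at EB5, and 4271 and 5470 at EB8. Its fall was 2.35-fold (log2 -1.23, SE 0.23, adjusted p = 0.00157, limma with Benjamini-Hochberg). In WT, Pcna had 10174 and 6967 normalised counts at ES and 6681 and 7061 at EB8, and the groups overlapped (log2 -0.29, adjusted p = 0.312). Cdt1, the loader of the MCM helicase, had 4116 and 5162 normalised counts in Taf4a-/- ES and 2241 and 1536 at EB8 (log2 -1.31, SE 0.306, adjusted p = 0.00553, limma with Benjamini-Hochberg). In WT, Cdt1 had 4660 and 4466 at ES and 3448 and 2779 at EB8. Of the WT libraries at EB4, EB5 and EB8, replicate 1, with the raised chromosome 8, had the higher value of Cdt1 each time. The part of that chromosome in the values of Cdt1 was not tested. Mcm3 fell in Taf4a-/- from 15506 and 16153 to 7406 and 7305 normalised counts (log2 -1.11, SE 0.157, adjusted p = 0.000312, limma with Benjamini-Hochberg), and Mcm10 from 4040 and 4914 to 1890 and 2100 (log2 -1.16, adjusted p = 0.000386).

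By single steps, few Taf4a-/- changes passed. From ES to EB4, Tk1 (log2 -1.11, SE 0.249, adjusted p = 0.0339) and Rpa2 (-0.70, SE 0.158, adjusted p = 0.0347) fell by limma with Benjamini-Hochberg, while 3.5% of all genes were called and 0.992% were called lower. Without any 1 of these libraries, neither passed. From EB4 to EB5, 0 of the 33 were called by limma, edgeR and DESeq2, with 5 at an unadjusted p below 0.05. Here limma called 2.51% of all 16124 genes, with 2630 at an unadjusted p below 0.05. From EB5 to EB8, limma and edgeR called 0 and DESeq2 1, with 3 at an unadjusted p below 0.05. Among all 16124 genes, limma called 0.738% (2065 at an unadjusted p below 0.05), and DESeq2 called 360 higher and 301 lower. The group means went down at each of the 3 steps for 26 of the 33 genes in Taf4a-/- and for 17 in WT. The mean was highest at ES for 32 genes in Taf4a-/- and 25 in WT, and lowest at EB8 for 30 and 23. These counts of group means were made for the 33 genes alone, without a share over all genes, and their difference between genotypes was not tested. The summed level of the 33 genes ran from 173275 to 200757 normalised counts in WT ES and from 123088 to 124421 in WT EB8. In Taf4a-/-, the sum ran from 209148 to 215344 at ES and from 109374 to 117871 at EB8. The ranges at ES and EB8 did not overlap in either genotype.

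**Figure D2:**
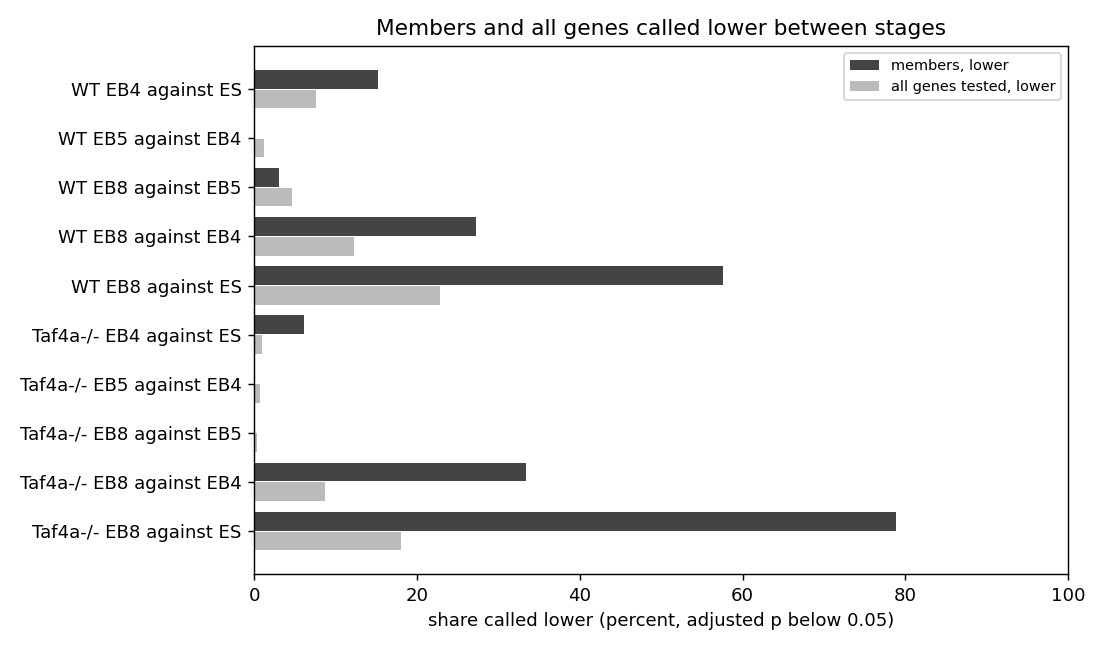
Bars give the percent of the 33 replication genes and of all 16124 genes tested that were called lower (adjusted p below 0.05, limma) in each of the 10 stage comparisons, from 0. The bars of the replication genes are highest in EB8 against ES, where 19 genes were called lower in WT and 26 in Taf4a-/-.

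EB8 was also set against EB4, which leaves out the deeper ES libraries. From EB4 to EB8, 9 of the 33 genes (27.3%) fell in WT (median log2 change -0.34) and 11 (33.3%) in Taf4a-/- (median -0.51), and none rose. Of all genes, 27.2% were called in WT and 12.2% were called lower. In Taf4a-/-, 18.5% were called and 8.67% were called lower. These comparisons share the EB8 libraries with those against ES. Pold1 had the largest called fall in both, at -0.98 in WT (SE 0.253, adjusted p = 0.013, limma with Benjamini-Hochberg) and -0.98 in Taf4a-/- (SE 0.253, adjusted p = 0.0199). Mcm3, Mcm7, Mcm10, Rfc1, Rfc5 and Tyms also fell in both genotypes. Tyms, thymidylate synthase, went in WT from 2011 and 1488 normalised counts at EB4 to 1066 and 1220 at EB8, and in Taf4a-/- from 1967 and 2090 to 1028 and 1455. Gmnn and Rpa1 fell in WT, and Mcm4, Pcna, Pole and Rpa2 in Taf4a-/-. The WT count rested on single libraries, with 1 called without EB4 replicate 1, 14 without EB4 replicate 2, 3 without EB8 replicate 1 and 2 without EB8 replicate 2. In Taf4a-/- the count was 2 to 4 when any library was left out.

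**Figure D3:**
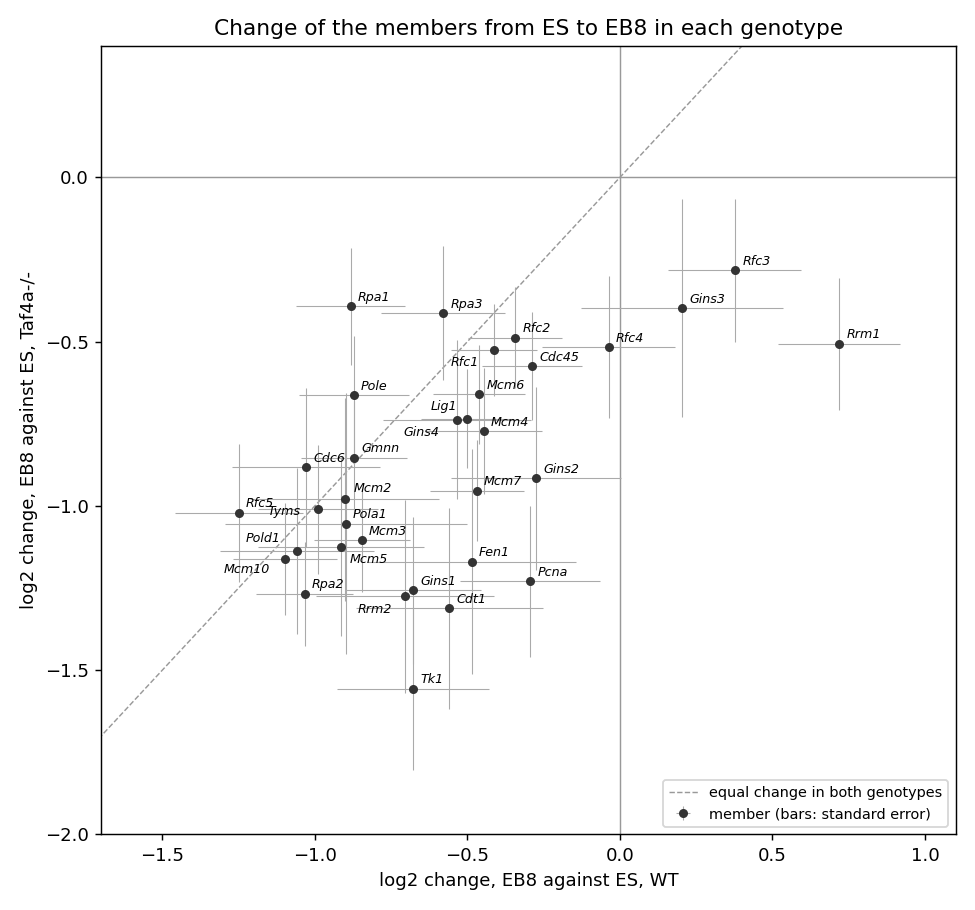
Log2 change from ES to EB8 of each of the 33 replication genes in WT (horizontal axis) and in Taf4a-/- (vertical axis), with standard errors from limma and a dashed line of equal change. Rrm1, Rfc3 and Gins3 lie to the right of 0 in WT, and no gene lies above 0 in Taf4a-/-.

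The difference between the genotypes in the change from ES to EB8 passed for 1 of the 33 genes, Rrm1, with 7.29% of all genes called. In Taf4a-/-, Rrm1 had 7694 and 6874 normalised counts at ES, 6422 and 6702 at EB4, 5853 and 5256 at EB5, and 4480 and 5847 at EB8. Both Taf4a-/- EB8 libraries lay below both ES libraries, whereas both WT EB8 libraries lay above theirs. The change in Taf4a-/- was lower than that in WT by 1.22 on the log2 scale (-1.22, SE 0.284, 95% interval -1.84 to -0.61, adjusted p = 0.0241, limma with Benjamini-Hochberg). The interaction was past the threshold in 13 of 20 alternatives, with adjusted p up to 0.0909. For Pcna the difference was -0.94 (95% interval -1.64 to -0.23, adjusted p = 0.0982), for Tk1 -0.88 (-1.64 to -0.11, adjusted p = 0.145) and for Cdt1 -0.75 (-1.69 to 0.19, adjusted p = 0.305), and none passed. Across the 33 genes, 27 of the differences were negative, with a median of -0.23 against -0.04 over all genes tested. The median of the 33 depended on the scaling, at -0.04 with upper-quartile rescaling and 0.02 with quantile normalisation. Over all genes the median was 0.16 and 0.02 with these scalings. From EB4 to EB8, no difference passed (0 by limma, edgeR and DESeq2, 3 at an unadjusted p below 0.05). For this difference limma called 2.75% of all 16124 genes, with 2658 at an unadjusted p below 0.05. No member passed by any of these tools from ES to EB4 either, with 0 members at an unadjusted p below 0.05. At that step limma called 0% of all genes (1129 had an unadjusted p below 0.05), edgeR called 0, and DESeq2 called 90 higher and 21 lower. From EB5 to EB8 no member passed by the 3 tools, with 2 members at an unadjusted p below 0.05. There limma called 0.781% of all 16124 genes, with 1568 at an unadjusted p below 0.05.

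Between the genotypes within a stage, few replication genes passed the test. At ES, 0 of the 33 were called by limma, edgeR or DESeq2, with 1 at an unadjusted p below 0.05 (Rpa1), and limma called 0% of all genes, with 1846 at an unadjusted p below 0.05. Yet 29 of the 33 differences at ES were positive (median 0.18, against -0.003 over all genes). Both Taf4a-/- libraries lay above both WT libraries for 15 and below for 1 (19% and 20.7% of all genes). At EB8, 22 were negative (median -0.12), with 4 above and 12 below (30.4% and 33.5% of all genes). These counts were not tested. Of all genes at ES, edgeR called 0, and DESeq2 called 100 higher and 369 lower. At EB4, limma and edgeR called 0 and DESeq2 3, with 5 at an unadjusted p below 0.05. Among all 16124 genes at EB4, limma called 6.12% (3668 at an unadjusted p below 0.05), and DESeq2 called 904 higher and 1173 lower. At EB5, limma and edgeR called 0 and DESeq2 1, with 4 at an unadjusted p below 0.05. Among all 16124 genes at EB5, limma called 4.34% (3342 at an unadjusted p below 0.05), and DESeq2 called 812 higher and 907 lower. At EB8, limma called 2 of the 33 (6.06%) and 22.9% of all genes. There edgeR and DESeq2 each called 3 of the 33, namely Rrm1, Rpa1 and Rfc5. Among all 16124 genes at EB8, edgeR called 1622 higher and 1924 lower, and DESeq2 2098 higher and 2528 lower. The limma split of 1 higher and 1 lower became 3 and 1 with upper-quartile rescaling and 4 and 1 with quantile normalisation. Upper-quartile rescaling moved the median of all genes from -0.03 to 0.11. Rrm1 was 2.02-fold lower in Taf4a-/- at EB8, with 4480 and 5847 normalised counts against 10442 and 10196 in WT (log2 -1.01, SE 0.201, adjusted p = 0.00389, limma with Benjamini-Hochberg). Rpa1, the large subunit of RPA, was 1.85-fold higher. It had 8045 and 7771 normalised counts in Taf4a-/- EB8 and 4401 and 4143 in WT EB8 (log2 0.89, SE 0.178, adjusted p = 0.0041, limma with Benjamini-Hochberg). The groups overlapped for neither gene, and both calls held in all 16 alternatives, with adjusted p up to 0.0437 for Rrm1 and 0.0354 for Rpa1. Rpa1 lies on chromosome 11 (75111668 to 75161826, minus strand, mm9) and Rrm1 on chromosome 7 (109590209 to 109618285, plus strand). Without Taf4a-/- EB8 replicate 1, the library with the raised chromosome 11, the change of Rpa1 was 0.86, with 1 Taf4a-/- EB8 library left. The part of that chromosome in the values of Rpa1 was not tested.

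Rpa1 in WT had 8583 and 7228 normalised counts at ES, 7048 and 5679 at EB4, 6465 and 6091 at EB5, and 4401 and 4143 at EB8. In Taf4a-/- it had 11846 and 9090, 8855 and 7204, and 8638 and 6987 at the first 3 stages. Replicate 1, with the raised chromosome 11, had the higher Taf4a-/- value each time. Both Taf4a-/- libraries lay above both WT libraries at every stage, though the difference passed at EB8 alone (0.40 at ES, 0.34 at EB4 and 0.31 at EB5). The difference between genotypes in its change from ES to EB8 did not pass (0.49, 95% interval -0.06 to 1.04, adjusted p = 0.249). Its partner Rpa2 had 2096 and 2165 normalised counts in WT EB8 and 1968 and 2125 in Taf4a-/- EB8 (log2 difference -0.06, 95% interval -0.40 to 0.29). Rfc5 and Pole were also higher in both Taf4a-/- libraries than in both WT libraries at every stage, and no single stage passed by limma. Of all genes, 19% lay above in this way at ES, 25.3% at EB4, 26.7% at EB5 and 30.4% at EB8. With 2 lines for a genotype, the 4 stages are not independent. The other tools called Rfc5 at EB8 (adjusted p = 0.0491 by edgeR and 0.0303 by DESeq2), and DESeq2 also called it at EB4 (0.0454) and EB5 (0.0449) and called Pole at EB4 (0.0156). Rfc5 had 6440 and 6097 normalised counts in Taf4a-/- ES, 4790 and 5732 at EB4, 3963 and 4242 at EB5, and 3164 and 3009 at EB8. In WT it had 4306 and 2438 at EB4 and 2496 and 2728 at EB5, and the differences ran from 0.39 at ES to 0.69 at EB4 (lowest adjusted p = 0.0512, at EB8, limma with Benjamini-Hochberg). Pole, which synthesises the leading strand, had 6203 and 6799 in Taf4a-/- EB4 against 4118 and 4213 in WT EB4 (log2 0.64, SE 0.18, adjusted p = 0.0559).

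**Figure D4:**
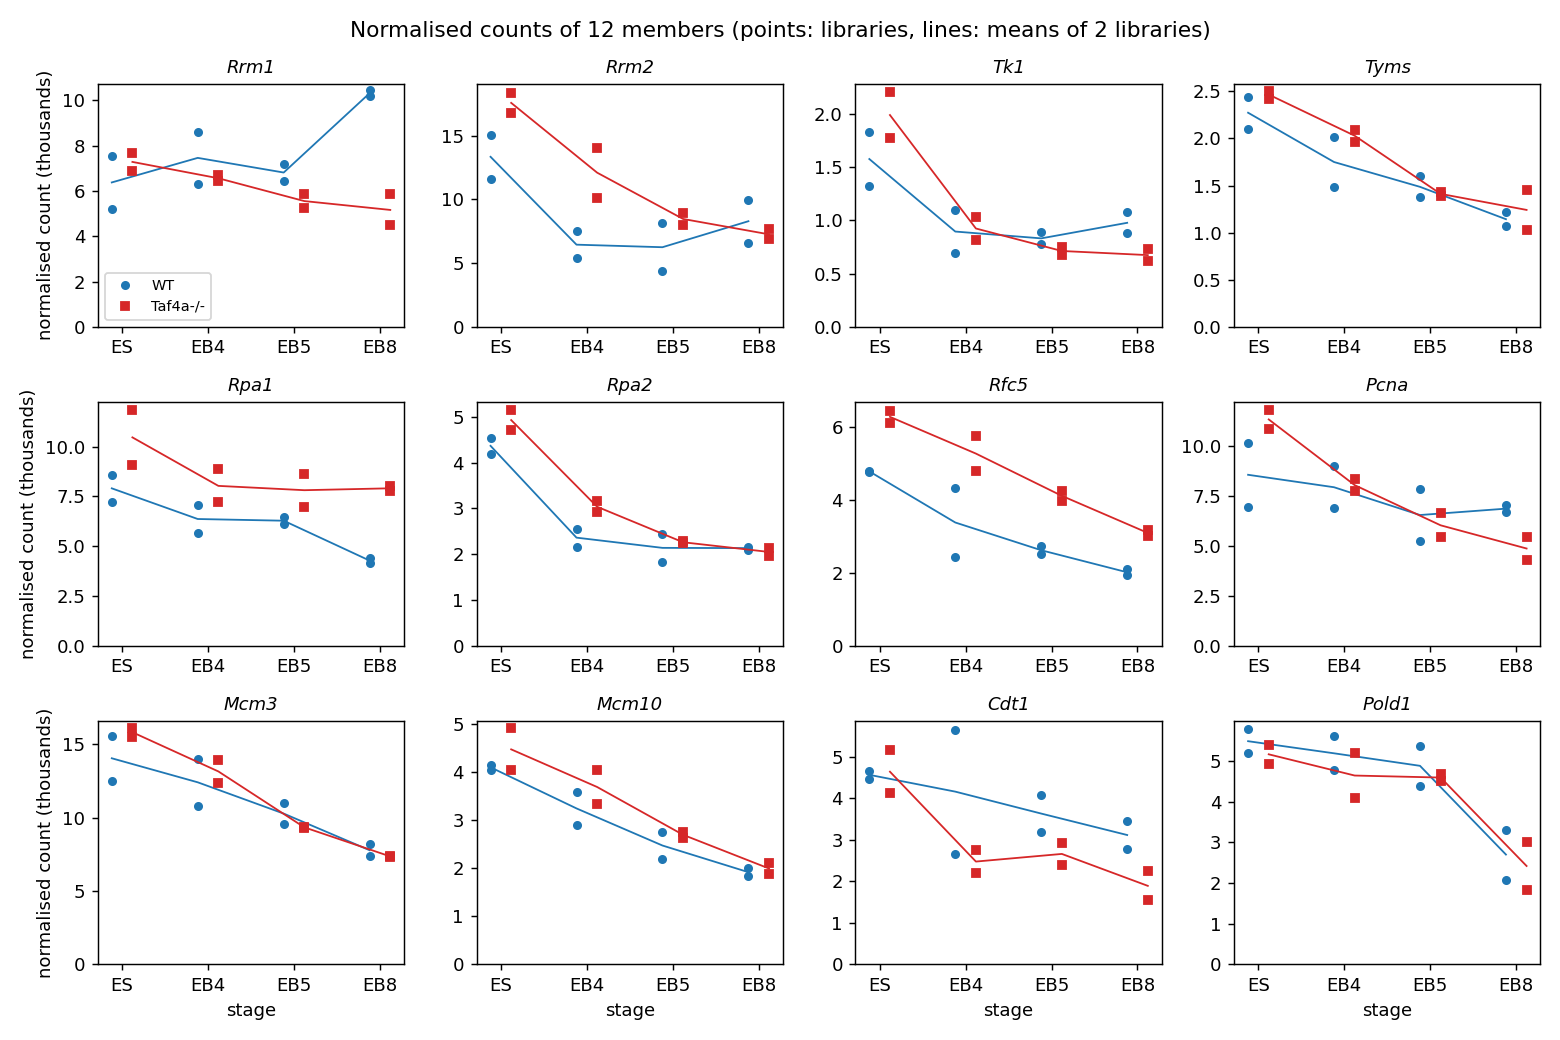
Normalised counts (axis in units of 1000) of 12 replication genes in each library (points) with the group means joined by lines, by stage and genotype. The WT and Taf4a-/- points of Rrm1 and of Rpa1 are apart at EB8, and those of Mcm3 and Mcm10 fall together.

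For most genes the EB8 levels of the genotypes could not be separated. The log2 difference of Mcm3 was -0.08 (95% interval -0.42 to 0.26), of Mcm6 -0.12 (-0.45 to 0.20) and of Rrm2 -0.16 (-0.80 to 0.47). For Rrm2 the interval does not exclude a change in either direction. Mcm2 showed a spread within Taf4a-/-, with 8925 and 17849 normalised counts at ES, 8216 and 11309 at EB4, 6104 and 9021 at EB5, and 5332 and 7671 at EB8. Replicate 1 was the lower at each stage, and the level of chromosome 6 was also lower in replicate 1 than in replicate 2 at each stage (-0.26 and -0.08 at ES, -0.04 and 0.08 at EB8). The part of that chromosome in the values of Mcm2 was not tested. Pola1, on X, was higher in Taf4a-/- replicate 2 at each stage (5636, 6954, 4246 and 2832) than in replicate 1 (3726, 3202, 2828 and 1718). Gins3, a GINS subunit and the only helicase partner with a positive change in WT from ES to EB8 (0.20, adjusted p = 0.64), had 532 and 501 normalised counts in WT ES and 826 and 428 in WT EB8. The library at 826 was replicate 1, with the raised chromosome 8. Neither the part of X in the values of Pola1 nor that of chromosome 8 in those of Gins3 was tested.

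Ratios between partner genes per kb of exon describe the same values within a library. The ratio of Rrm2 to Rrm1 was 3.05 ± 0.228 (SD, n = 2) in WT ES, 1.31 ± 0.572 at EB4, 1.31 ± 0.467 at EB5 and 1.16 ± 0.356 at EB8. In Taf4a-/- it was 3.50 ± 0.505, 2.65 ± 0.533, 2.21 ± 0.333 and 2.08 ± 0.540. At EB4 and at each later stage, both Taf4a-/- libraries had a higher ratio than both WT libraries. The ratio of Rpa1 to Rpa2 was 0.970 ± 0.062 in WT ES, 1.44 ± 0.047 at EB4, 1.62 ± 0.403 at EB5 and 1.08 ± 0.071 at EB8. In Taf4a-/- it was 1.15 ± 0.285, 1.43 ± 0.286, 1.85 ± 0.254 and 2.08 ± 0.164. The mean ratio thus rose from ES to EB5 in both genotypes, and from EB5 to EB8 it dropped in WT only. The values of the genotypes overlapped at ES, EB4 and EB5 and did not overlap at EB8. Cdt1 relative to Gmnn, its inhibitor, went from 0.937 ± 0.001 to 1.19 ± 0.336 in WT and from 1.12 ± 0.220 to 0.817 ± 0.176 in Taf4a-/-. Both WT EB8 libraries (1.43 and 0.950) lay above both WT ES libraries (0.936 and 0.937), replicate 2 only narrowly. Both Taf4a-/- EB8 libraries (0.942 and 0.693) lay below both Taf4a-/- ES libraries (0.965 and 1.28), replicate 1 only narrowly, with no test of the ratio. At EB4 and EB5, WT replicate 1 had 1.31 and 1.48, and WT replicate 2 had 0.713 and 0.827, below ES. WT replicate 1 is the library with the raised chromosome 8, which holds Cdt1, and the part of that chromosome was not tested.

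**Figure D5:**
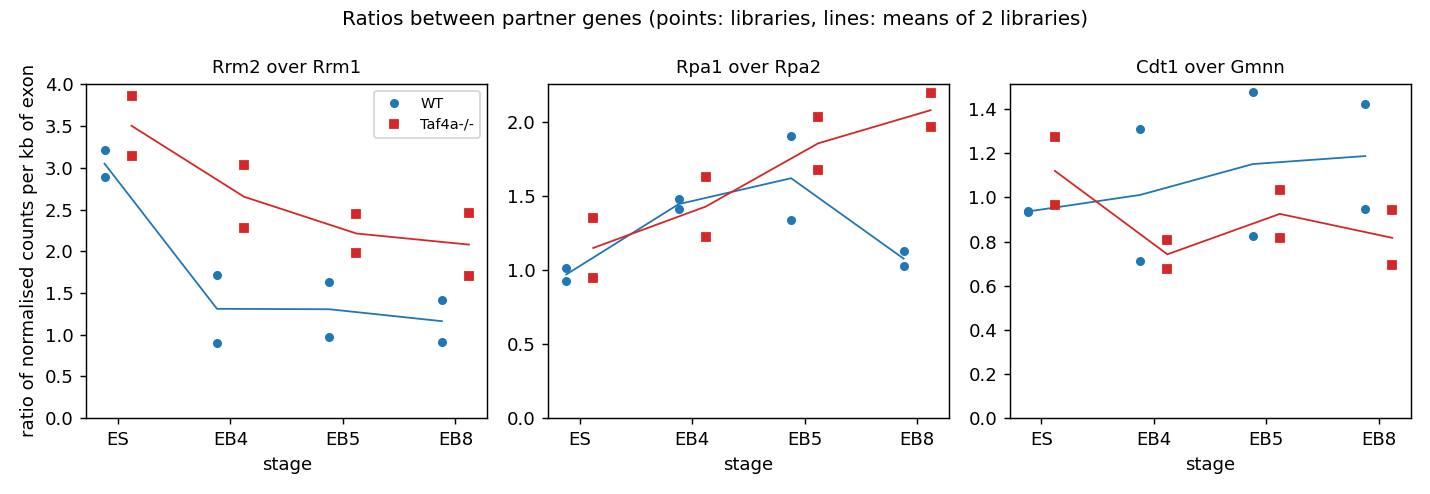
Ratios of normalised counts per kb of exon for Rrm2 over Rrm1, Rpa1 over Rpa2 and Cdt1 over Gmnn in each library (points), with group means as lines, by stage and genotype. The Rrm2 over Rrm1 ratio in WT drops at EB4, and the Rpa1 over Rpa2 ratio is near 2.08 in Taf4a-/- EB8.

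Other genes of the pathway were read from 3 lists. As their background, 24% of all genes rose and 22.8% fell in WT from ES to EB8, and 19.7% rose and 18% fell in Taf4a-/-. At EB8, 10.4% of all genes were higher and 12.5% lower in Taf4a-/- than in WT. Of 40 further replication genes, 18 fell and 1 rose in WT from ES to EB8, and 28 fell and none rose in Taf4a-/-. In WT the largest falls were of Orc1 (log2 -1.89), a subunit of the origin recognition complex, Chtf18 (-1.75), part of an alternative clamp loader, and Dtymk (-1.54), thymidylate kinase, while Pole3 rose by 0.59. In Taf4a-/- they were of Recql4 (-1.72), Chtf18 (-1.67) and Dtymk (-1.57). Between genotypes at EB8, Orc1 (1.00) and Ticrr (0.78) were higher in Taf4a-/-, and Clspn (-1.03), Dck (-0.97) and Pole3 (-0.81) were lower. All named values passed an adjusted p of 0.05 by limma with Benjamini-Hochberg.

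Of 13 E2F and pocket protein genes, 7 rose and none fell from ES to EB8 in WT, where 24% of all genes rose and 22.8% fell, with E2f2 at 1.43, Rbl2 at 1.38 and Rb1 at 1.34. In Taf4a-/-, 2 rose (Rb1 at 2.18 and E2f6 at 0.42) and 4 fell, among them E2f8 (-2.34), E2f4 (-1.45) and E2f2 (-1.37). At EB8, 4 were lower in Taf4a-/- than in WT and none was higher (12.5% and 10.4% of all genes), led by E2f2 (-2.76), E2f8 (-1.24) and Tfdp2 (-0.95). The change from ES to EB8 differed between the genotypes for E2f2 (-2.80), E2f8 (-2.21) and Rbl1 (-1.05). E2f1 to E2f3 are known as activators and E2f7 and E2f8 as repressors of the E2F target genes. Of 20 mitotic genes, 9 fell and 2 rose in WT from ES to EB8, and 15 fell and none rose in Taf4a-/-, against the same shares of all genes as above. Mki67, a mark of cycling cells, rose by 1.19 in WT, and its change differed between the genotypes (-1.21, adjusted p = 0.0114, limma with Benjamini-Hochberg). Mybl2, a partner of the complex that drives mitotic genes, fell in both genotypes (log2 -3.64 in WT and -2.13 in Taf4a-/-), and it fell less in Taf4a-/- than in WT (test of the difference, adjusted p = 0.0384, limma with Benjamini-Hochberg).

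Markers of cell types moved with stage and genotype, and their part in the values of the replication genes was not tested. The sum of 5 ES cell markers (Nanog, Pou5f1, Zfp42, Esrrb and Dppa5a) lay between 58657 and 104029 normalised counts in the WT ES libraries and between 851 and 1292 in WT EB8. In Taf4a-/- that sum lay between 88343 and 97090 at ES and between 23387 and 26182 at EB8. The sum of 4 neural progenitor markers was 23272 to 26214 in WT EB8 and 4785 to 4820 in Taf4a-/- EB8. The sum of 5 neuron markers was 17232 to 23216 in WT EB8 and 1535 to 1712 in Taf4a-/- EB8, with Dcx at 4946 and 6972 in WT and at 61 and 88 in Taf4a-/-. In WT EB8 the progenitor and neuron sums were well above those of WT ES (2336 to 7492 and 8304 to 9321). In Taf4a-/- EB8 the progenitor sum was above both Taf4a-/- ES libraries (2269 and 3750) but below both Taf4a-/- EB5 libraries (4878 and 8363). The neuron sum was below both Taf4a-/- ES libraries (10170 and 10765), although Dcx rose there from 2 and 6 at ES. Stmn2, a large part of the ES neuron sum, also fell in WT, from 5303 and 6491 at ES to 1468 and 1799 at EB8. Both sums were far below those of WT EB8, so the label of neural precursor cells was borne out less in Taf4a-/- than in WT. The 6 feeder fibroblast markers summed to 1021 to 2640 in WT ES and 203 to 472 in Taf4a-/- ES, and to 2036 to 2625 in WT EB8 and 866 to 3101 in Taf4a-/- EB8, with Lum at or near 0 in every ES library and Col1a1 at 662 and 1451 in WT ES and at 119 and 170 in Taf4a-/- ES.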

How the data were processed

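Poly-A RNA of mouse ES cells and embryoid bodies was sequenced as single-end reads in 16 libraries. Per the labels and the submitters' processing notes, the authors used CASAVA (1.7 and 1.8), TopHat2 2.0.10, HTSeq 0.5.4p3 and DESeq2 1.0.19 with the genome build mm9. Which annotation release was used, and whether counting used the strand, is not given in the sources used here. The deposited signal of a gene is its read count over the size factor of that library. In every library 100% of the values were whole reads within 0.01 of a read after division by that library's step. The recovered reads gave the depth and, rounded, entered edgeR 4.0.16 and DESeq2 1.42.0 as alternatives.

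The main test was limma 3.58.1 in R 4.3.3 on log2(normalised count + 1), with a mean for each of 8 groups, moderated along a trend, and 8 residual degrees of freedom. The change of low genes is understated on this scale. The test took the 16124 of 27807 genes whose mean reached 10 normalised counts, with Benjamini-Hochberg adjustment over them and a threshold of 0.05. The test was checked on simulated data with independent libraries and 1 spread for all genes. That check held no effects of line, replicate or chromosome, so it cannot say how the test behaves with them. Tables and figures were made in Python 3.11.15 with pandas 2.3.3, numpy 2.4.6 and matplotlib 3.10.9. Gene positions and exon lengths are from GENCODE M1 on mm9, promoters from RefSeq on GRCm38.p6.

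The 33 genes, the lists and the tests were chosen with earlier results of these data known. Any of the 33 genes could be named. At most 3 rising and 3 falling genes of each further list were named per comparison. The comparisons of EB8 with ES and with EB4 were added after the values of single steps were seen. The alternatives were pseudocounts of 0.1 and 5, no filter, a mean of at least 50, upper-quartile and quantile scaling, only the compared groups, replicate blocks, other tools, genes off chromosomes 8, 11 and X, and leaving out each library.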

Additional observations from a re-analysis of the deposited data

Results flagged for a closer look

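Rrm1 differed between the genotypes in its change from ES to EB8, by -1.22 on the log2 scale (Taf4a-/- minus WT, adjusted p = 0.0241, limma with Benjamini-Hochberg). Both WT libraries at EB8 lay above both at ES (log2 change 0.72), and both Taf4a-/- libraries lay below (-0.51). From EB4 to EB8, Rrm1 again lay higher in both WT libraries (0.49) and lower in both Taf4a-/- libraries (-0.36), and the difference of -0.84 did not pass (adjusted p = 0.146). These comparisons share the EB8 libraries.

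Other genes whose libraries moved in opposite directions without overlap were Rfc3 from ES to EB8 (0.38 in WT and -0.28 in Taf4a-/-, a difference of -0.66, adjusted p = 0.206) and Cdc45 from EB4 to EB8 (0.26 and -0.19, a difference of -0.45, adjusted p = 0.37, limma with Benjamini-Hochberg). Neither difference passed the threshold. With 2 libraries in a group, no single library was tested for standing apart.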

How the results depend on the processing

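No call of a single replication gene reversed. Of 77 such calls, 23 were past the threshold in every alternative, and over all 1236 alternatives 1026 were past it and 210 were not. The difference of Rrm1 between genotypes from ES to EB8 was not past it in 7 of 20. The counts of members called moved as follows, and the cause was not tested unless the setting uses fewer genes or libraries. Taf4a-/- against WT called 0 at EB4, where a replicate block gave 2, a block within genotype 3, a block with exchanged Taf4a-/- numbers 1 and DESeq2 3. At EB5 it called 0, with 2 under the block within genotype, 1 under the exchanged block and 1 by DESeq2. At EB8 it called 2, with 4 under upper-quartile scaling, 5 under quantile scaling, 5 under the block within genotype and 1 among genes off chromosomes 8, 11 and X. From ES to EB4, WT called 5, with 3 unfiltered, 0 when only the compared groups were fitted and 3 off those chromosomes, and Taf4a-/- called 2, with 0 unfiltered, 1 under quantile scaling, 0 for only the compared groups and 1 off those chromosomes. From EB5 to EB8, WT called 1, with 0 unfiltered, 3 under upper-quartile scaling, 4 under quantile scaling, 0 for only the compared groups, 2 under either numbered block, 0 by edgeR and 3 by DESeq2, and Taf4a-/- called 0, with 1 under the block within genotype, 1 under the exchanged block and 1 by DESeq2. From ES to EB8, WT called 20 (12 for only the compared groups), Taf4a-/- 26 (17 under quantile scaling) and the difference 1 (2 under quantile scaling and 0 for only the compared groups). From EB4 to EB8, WT called 9, with 1 for only the compared groups and 14 under the block within genotype, and Taf4a-/- called 11, with 4 under quantile scaling and 5 for only the compared groups.

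With 1 library left out, WT called 11 to 16 from ES to EB8 (11 without WT EB8 replicate 1 and 13 without WT ES replicate 1), 2 to 3 from ES to EB4, 0 to 1 from EB4 to EB5, 0 to 1 from EB5 to EB8 and 1 to 14 from EB4 to EB8. Taf4a-/- called 18 to 21 from ES to EB8, 0 to 0 at each single step and 2 to 4 from EB4 to EB8. Between genotypes the counts were 0 to 0 at ES, 0 to 1 at EB4, 0 to 0 at EB5 and 2 to 2 at EB8, and for the differences 0 to 2 from ES to EB8 and 0 to 0 otherwise. The lone library left in a group is assumed to vary like the other groups. The labels do not say that replicate numbers pair libraries. Between genotypes, the correlation of the replicate differences was 0.33 at ES and -0.06, -0.21 and -0.13 at EB4, EB5 and EB8. Within a genotype the numbers went together across embryoid body stages, at 0.52 to 0.61 in WT and 0.23 to 0.42 in Taf4a-/-, and between ES and EB4 at -0.08 in WT and 0.39 in Taf4a-/-, which is a hint from the data and not the design. Exchanging the Taf4a-/- numbers gave 3 calls at EB8, 20 from ES to EB8 in WT and 27 in Taf4a-/-. Upper-quartile scaling moved the median of all genes from -0.03 to 0.11 for Taf4a-/- against WT at EB8, and the median of the members from -0.12 to 0.02. Every member had 140 reads or more in every library.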
